A study of Mus musculus and Rattus norvegicus with 96 samples.

Results

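The phenobarbital (PB) response was read in 12 RNA-seq libraries of mouse liver that had been frozen, then placed in 70% ethanol and embedded in paraffin (FR > OH). These were the libraries with this preservation label, 6 from PB mice and 6 from vehicle controls (Con), of 48 mouse liver libraries and 96 samples in the whole series. All animals were male B6C3F1 mice of 10 to 11 weeks, a hybrid of C57BL/6 and C3H. The PB mice (18B, 18D, 20B, 20D, 75C and 80B) drank water with 600 ppm PB for 7 days, and the Con mice (8A, 8C, 8D, 21C, 82B and 90C) drank water without it. Each liver was divided, so the same 12 animals also gave frozen (FR), frozen then formalin-fixed (FR > FFPE) and directly formalin-fixed (FFPE) libraries. RNA of the embedded tissue came from sections of a block, and each library is therefore a small sample of 1 liver. Every value below is for whole tissue, in which fewer cells of a type and less RNA per cell cannot be told apart.

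PB is the classic activator of the constitutive androstane receptor (CAR, encoded by Nr1i3) in hepatocytes, and at higher exposure of the pregnane X receptor (PXR, encoded by Nr1i2). Once active, CAR enters the nucleus, pairs with the retinoid X receptor and binds DNA elements built from half-sites related to AGGTCA. Its known targets serve drug clearance in steps: cytochrome P450 enzymes oxidize a compound, transferases attach a soluble group, and transporters export the product. In rodent liver PB is also known for enlarging hepatocytes and for a passing wave of cell division.

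The upstream sequences of 6 genes that rose with PB are shown, since the results turn on the P450 genes and on the cell cycle genes. Each run is the 250 bases before the RefSeq gene start, 5′ to 3′, on GRCm38.p6. Capitals in the first 3 mark the half-sites AGGTCA and AGTTCA on either strand, and capitals in the last 3 mark CCAAT on either strand, the box bound by NF-Y.
Cyp2b10 (chr7:25897408-25897657, plus strand): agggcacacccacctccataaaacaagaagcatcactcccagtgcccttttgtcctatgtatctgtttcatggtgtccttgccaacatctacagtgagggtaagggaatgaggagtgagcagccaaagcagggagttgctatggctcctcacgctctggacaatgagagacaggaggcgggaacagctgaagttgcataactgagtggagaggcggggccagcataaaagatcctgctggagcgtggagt
Cyp2c29 (chr19:39286835-39287084, plus strand): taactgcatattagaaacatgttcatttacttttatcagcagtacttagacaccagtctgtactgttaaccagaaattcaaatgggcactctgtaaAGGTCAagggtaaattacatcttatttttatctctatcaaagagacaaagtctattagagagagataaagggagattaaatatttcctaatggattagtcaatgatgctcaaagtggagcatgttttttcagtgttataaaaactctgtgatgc
Cyp3a11 (chr5:145879855-145880104, minus strand): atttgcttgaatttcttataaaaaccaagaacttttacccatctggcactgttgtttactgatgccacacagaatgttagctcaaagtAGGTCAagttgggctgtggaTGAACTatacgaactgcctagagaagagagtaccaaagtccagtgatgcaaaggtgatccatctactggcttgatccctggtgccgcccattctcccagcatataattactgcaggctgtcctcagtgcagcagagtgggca
Ccnb1 (chr13:100786487-100786736, minus strand): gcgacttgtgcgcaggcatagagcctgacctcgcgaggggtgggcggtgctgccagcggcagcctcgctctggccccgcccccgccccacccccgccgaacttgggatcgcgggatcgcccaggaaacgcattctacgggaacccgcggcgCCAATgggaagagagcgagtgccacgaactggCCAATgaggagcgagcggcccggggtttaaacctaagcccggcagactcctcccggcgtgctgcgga
Cdk1 (chr10:69352913-69353162, minus strand): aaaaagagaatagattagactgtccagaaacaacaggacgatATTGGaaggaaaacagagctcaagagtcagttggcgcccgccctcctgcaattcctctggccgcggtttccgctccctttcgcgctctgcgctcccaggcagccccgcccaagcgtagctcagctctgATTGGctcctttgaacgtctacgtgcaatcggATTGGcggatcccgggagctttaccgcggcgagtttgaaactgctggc
Top2a (chr11:99024190-99024439, minus strand): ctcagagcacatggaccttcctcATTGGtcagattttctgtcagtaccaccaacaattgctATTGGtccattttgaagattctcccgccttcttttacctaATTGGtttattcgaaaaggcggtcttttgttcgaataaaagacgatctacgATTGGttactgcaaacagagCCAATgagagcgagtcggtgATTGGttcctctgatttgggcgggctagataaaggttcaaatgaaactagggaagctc

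Cyp3a11 held 2 half-sites, starting at −162 and −142 bases from the gene start, Cyp2c29 held 1 at −154, and Cyp2b10 held none in this window. The phenobarbital-responsive enhancer known for Cyp2b10 lies farther upstream than the window reaches. Ccnb1, Cdk1 and Top2a held 2, 3 and 6 CCAAT boxes. A sequence was found for 10275 of the 13370 genes tested, of which 10.9% held AGGTCA, 8.97% held AGTTCA and 18.9% held either. Among genes called higher in PB, 47 of the 201 with a sequence held a half-site (23.4%). Of the called P450 genes, 12 had a sequence, and 6 of these held a half-site. CCAAT was in 36.8% of all 10275 sequences and in 14 of 17 sequences of the cell cycle list. These letter matches are descriptions, and no site was tested.

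Con libraries held 8167316 to 10109525 counts on genes (median 9075572) and PB libraries 8263153 to 11539026 (median 9398578). The difference of the means, 419809 counts more in PB, was within the spread between libraries (exact two-sided permutation test, p = 0.485, where 0.00216 is the smallest p that 6 vs. 6 can give). Expression is given as CPM, a gene's count per 1000000 counts that fell on the 13370 genes passing the filter. The titles carry an L number, which may be a sequencing lane. It was 5 in all 6 PB libraries and in Con 8C, 8D and 90C, and 4 in Con 8A, 21C and 82B, so the changes of the leading genes and the calls lost within L number 5 are given beside those of all 12 libraries. Between the L numbers within Con no gene was called (edgeR, 0 genes, 650 with an unadjusted p under 0.05). The 8 hepatocyte markers, Alb among them, summed to 90612 to 107155 CPM in Con and 71697 to 88821 CPM in PB, groups that did not overlap, with none of the 8 called. Their log2 changes ran from −0.61 (Alb, adjusted p = 0.04) to 0.084 (Fah). The sums for Kupffer cells, endothelium, stellate cells, cholangiocytes and red blood cells overlapped between the groups. Of these 37 markers 0 were called, where 2.25% of all genes tested were. The stellate markers Col1a1 (0.91, adjusted p = 0.0476) and Col3a1 (0.83, adjusted p = 0.0109) passed by adjusted p alone. Log2 changes of Kupffer markers ran from 0.14 to 0.85 and of endothelial markers from −0.073 to 0.61. Adipocyte and pancreatic acinar markers held 2 and 3 counts in all 12 libraries together. Of the smooth muscle markers, Acta2 was called, at 0.594 to 1.76 CPM in Con and 1.47 to 8.29 CPM in PB. The part of these markers in the results was not tested.

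PB moved a small share of the transcriptome, mostly upwards. Genes counted as differentially expressed (DEGs) when the adjusted p lay under 0.05 and the 2 groups differed by 2-fold or more, and 301 of the 13370 genes tested were called (2.25%). Of these, 266 were higher in PB (1.99% of genes tested) and 35 lower (0.262%). The median log2 fold change was 1.89 among genes called higher, −1.37 among genes called lower and 0.02 over all genes tested. By adjusted p alone 1223 genes passed (9.15%), 913 of them higher. The 2 groups of mice did not overlap for 724 genes (5.42%) and for 193 of the 301 called. Within L number 5, with 3 Con and 6 PB mice, 134 genes were called (1.00%), 121 higher and 13 lower. Each of the 301 kept its direction there, with a median log2 change of 1.71 in the called direction against 1.78 in all 12 libraries, and 122 of them were called. These libraries are part of the 12 by which the 301 were picked and hold all 6 PB libraries. A kept direction was thus largely set in advance and is no test of the L number. Of the 59 DEGs that were named genes, 43 were called within L number 5, and the other 16 are marked beside their values. Leaving out 1 mouse at a time gave 227 DEGs (without PB mouse 20B) to 329 (without PB mouse 75C), and genes called lower fell to 22 without Con mouse 8A.

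**Figure D1:**
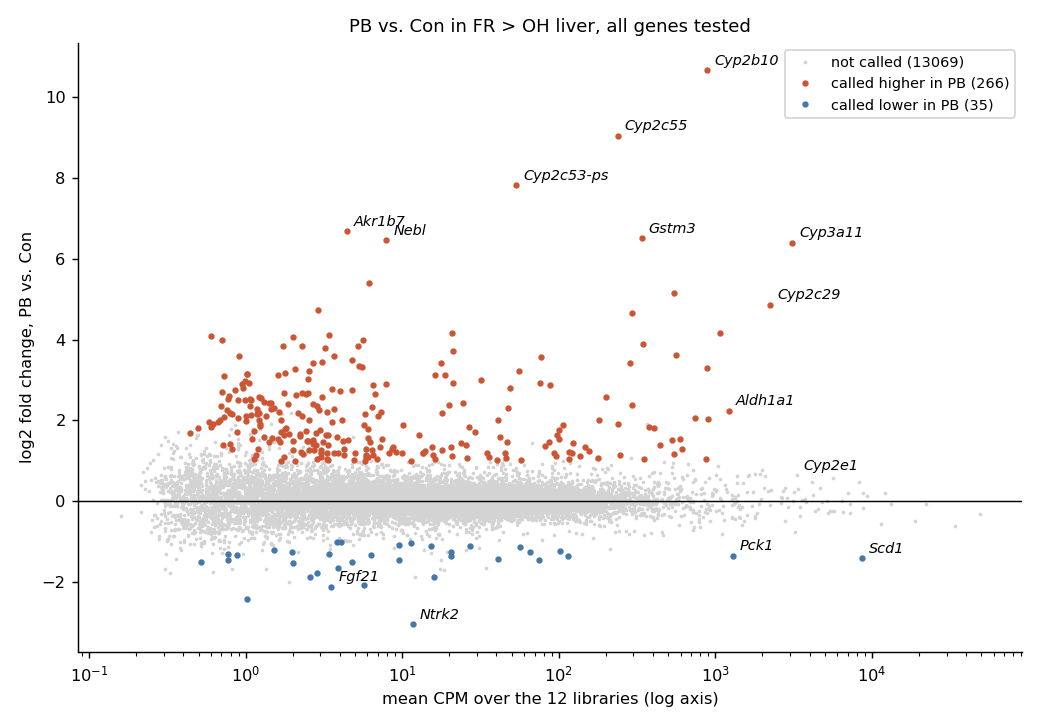
Log2 fold change of PB vs. Con (vertical axis) against the mean CPM over the 12 FR > OH libraries (horizontal, log axis), 1 point per gene tested. The 266 genes called higher reach a log2 change of 10.67 at Cyp2b10, while the 35 called lower end at −3.06 with Ntrk2.

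The single genes with the largest rises were P450 genes, while the P450 families differed among themselves. Genes named Cyp took 0.954% to 1.37% of a library's counts in Con (median 1.05%) and 2.86% to 3.8% in PB (median 3.04%), without overlap. Cyp2b10, the mouse P450 used as the marker of CAR activation, lay between 0.396 and 2.45 CPM (median 0.991) in Con and between 1415 and 2291 CPM (median 1665) in PB. Mouse 90C was the highest Con mouse and 80B the highest PB mouse, and the groups did not overlap. The log2 fold change was 10.67 (SE 0.32, adjusted p = 8.23e-12) and 10.34 within L number 5. Con libraries held only 4 to 20 counts of Cyp2b10 each, so the ratio rests on few counts in the denominator. Of the 5 Cyp2b genes listed, only Cyp2b10 passed the filter. Cyp2b9, which male mice express little, had 4 counts in all Con libraries together and 23 in PB, a ratio of 5.5 (95% interval of counting error, 1.88 to 21.9), and PB mouse 20D held most of these at 1.29 CPM. Cyp2b13 had no count in Con and at most 0.114 CPM in PB.

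In the Cyp2c family, 6 of 12 tested genes rose and none fell, with a median log2 change of 2.38. Cyp2c55 was at 0.346 to 1.35 CPM (median 0.996) in Con and at 388 to 632 CPM (median 423) in PB, a log2 change of 9.06 (SE 0.26, adjusted p = 8.23e-12). Its 3 Con libraries of L number 5 held 1.1 to 1.35 CPM and the 3 of L number 4 held 0.346 to 0.889 CPM, and within L number 5 the change was 8.58. The pseudogene Cyp2c53-ps rose by 7.82, from 0 to 0.667 CPM in Con to 84.2 to 146 CPM in PB (7.46 within L number 5). Cyp2c29, an abundant hepatic member, moved from 45.4 to 265 CPM (median 154) up to 3590.1 to 5295 CPM (median 3951), a log2 change of 4.86 (SE 0.38, adjusted p = 9.89e-07) and 4.67 within L number 5. Cyp2c54, Cyp2c37 and Cyp2c50 rose by 5.16, 4.67 and 4.15 without overlap between groups. The other 6 tested members, among them Cyp2c67 (0.0013) and Cyp2c70 (0.60), were not called. Of the 4 members that did not pass the filter, Cyp2c66 and Cyp2c65 had no count in any Con library and 650 and 137 counts over the PB libraries. Against a floor of 3 counts over the Con group, they were at least 207-fold and at least 43.7-fold higher in PB, and the 95% intervals of counting error began at 168 and 35. The Cyp2c genes are close copies in 1 cluster, and reads they share were divided among them by the authors' estimation, so levels of single members are less certain than that of the family.

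Cyp3a11, the main PXR-regulated P450 of mouse liver, was at 18.8 to 135 CPM (median 76.1) in Con and 4094 to 9857 CPM (median 5038) in PB. Mice 20B and 80B held the highest values, and the log2 change was 6.40 (SE 0.47, adjusted p = 5.57e-07) and 6.22 within L number 5. Of 4 Cyp3a genes tested, Cyp3a59 (2.99) and Cyp3a25 (1.54) rose as well and Cyp3a13 was not called (0.97). Of the 5 members that did not pass the filter, Cyp3a44 held 5 counts in Con and 177 in PB, a ratio of 33.8 (95% interval of counting error, 14.2 to 106). Cyp3a41a and Cyp3a16 held none in Con and 71 and 28 in PB, at least 22.6-fold and at least 8.92-fold higher against the same floor, with intervals that began at 17.9 and 6.79. These genes are close copies, so their single counts are uncertain. Cyp2a5, which hydroxylates coumarin, rose by 3.89, from 19.3 to 96.2 CPM in Con to 419 to 1149.9 CPM in PB. Cyp1a2, the caffeine-metabolizing P450 of pericentral hepatocytes, rose by 2.07 (SE 0.16, adjusted p = 9.65e-07), from 210.1 to 428 CPM to 1056 to 1359.5 CPM. Among 17 other Cyp2 genes, Cyp2d12 (4.00) and Cyp2g1 (4.10) rose and Cyp2d40 fell, from 59.4 to 95 CPM in Con to 30 to 42.1 CPM in PB (log2 change −1.14). Cyp2g1 held 3 counts in all Con libraries together and 67 in PB, a ratio of 21.4 (95% interval of counting error, 7 to 106). Cyp2e1, the ethanol-inducible P450, did not overlap between groups (2108 to 3719 CPM vs. 3783 to 4377 CPM), but its log2 change of 0.64 was under the fold threshold. None of 13 Cyp4 genes, which act on fatty acids, was called (median −0.017), where 2.25% of all genes tested were.

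**Figure D2:**
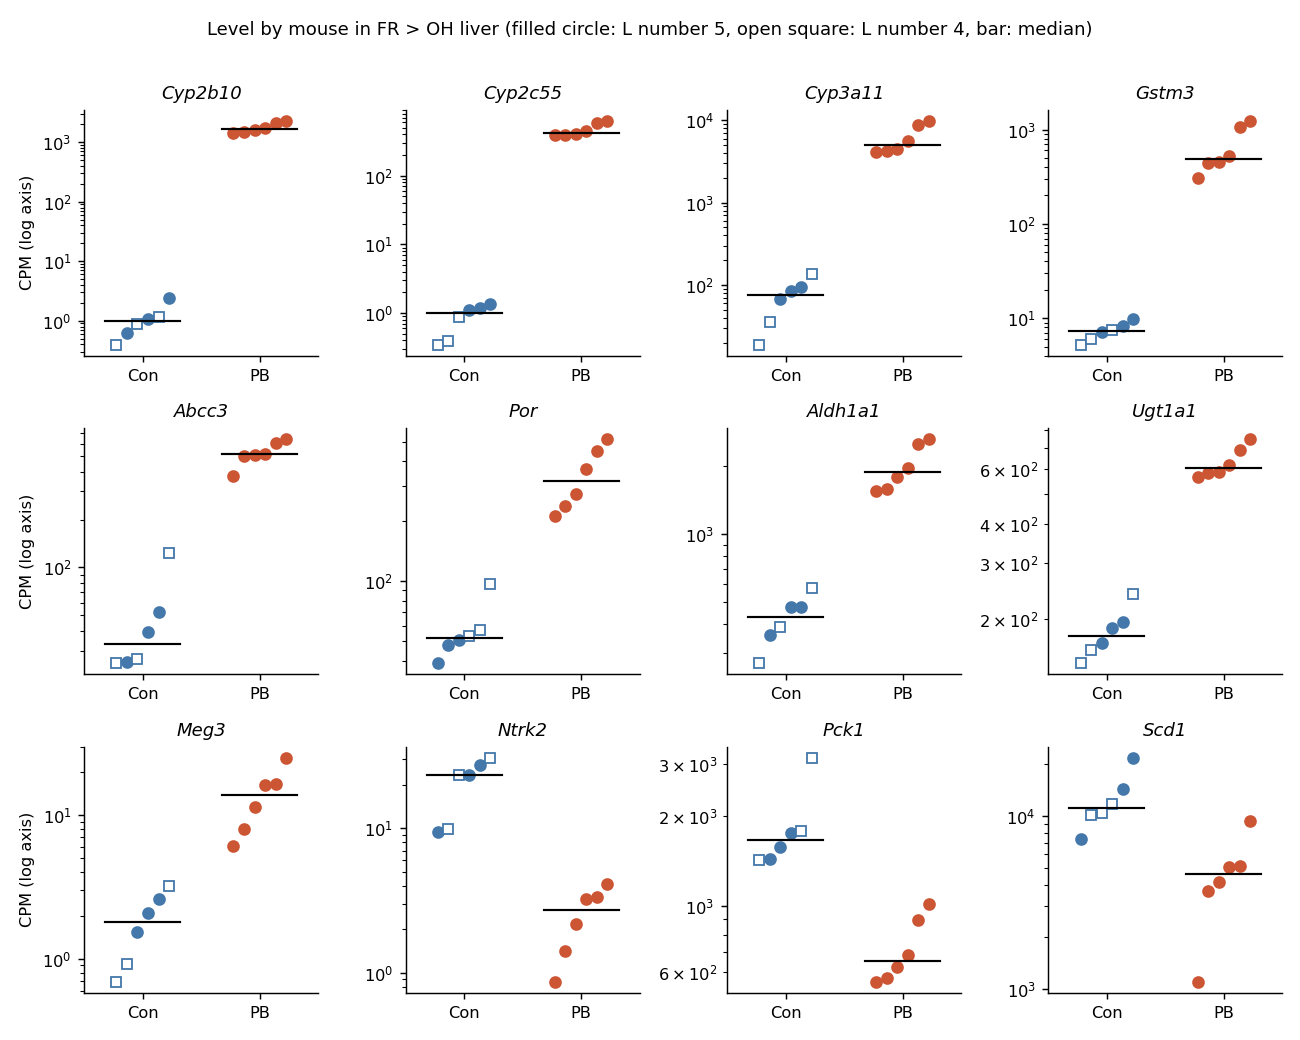
CPM of 12 genes (log axes) in each of the 6 Con and 6 PB mice of FR > OH, 1 point per mouse, with bars at the group medians. Filled circles have L number 5 and open squares L number 4. Groups are apart in every panel but Scd1, where PB mouse 20D (9374 CPM) lies above Con mouse 90C (7367 CPM).

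Proteins that serve the P450 enzymes responded in part. Por, the reductase that hands electrons to all microsomal P450s, rose by 2.58 (SE 0.25, adjusted p = 9.13e-06), from 38.9 to 96.6 CPM (median 51.9) in Con to 213 to 513 CPM (median 318) in PB. Within L number 5 the change of Por was 2.90. Cytochrome b5, encoded by Cyb5a, rose by 1.52. The other 13 of 15 genes of electron transfer and heme synthesis were not called, and the list's median was 0.22. Alas1, the first enzyme of heme synthesis, varied widely in both groups (27.9 to 265 CPM in Con, 58.8 to 463 CPM in PB), and its log2 change of 1.05 (SE 0.55) did not pass (adjusted p = 0.268).

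Of 21 tested enzymes acting on aldehydes, epoxides and flavin-dependent substrates, 7 rose and none fell (median 0.57). Aldh1a1, which oxidizes retinal, rose by 2.24 (SE 0.19, adjusted p = 2.44e-06), from 269 to 581 CPM (median 433) to 1561 to 2633 CPM (median 1881), and by 2.20 within L number 5. Aldh1a7, a close copy of it, rose by 1.25 and was not called within L number 5 (1.17, adjusted p = 0.0764). Ephx1, the microsomal epoxide hydrolase, rose by 2.00 from 54.1 to 109.9 CPM to 216 to 344 CPM. Akr1b7, an aldo-keto reductase, was near 0 in Con, with 4 counts in the 6 libraries together, and at 1.47 to 20.5 CPM in PB, where 20B and 80B held 20.5 and 19.2 CPM. Its ratio was 129 (95% interval of counting error, 50.2 to 476). Fmo5, a flavin monooxygenase, rose by 1.29. Of 15 carboxylesterases, 4 rose, led by Ces2a (3.61, and 3.50 within L number 5) and Ces2c (2.93). Ces2a lay at 63.7 to 104 CPM in Con and 763 to 1464 CPM in PB.

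Conjugating enzymes rose in number. Among glutathione S-transferases 10 of 22 tested genes rose and none fell, with a median of 0.80. Gstm3 went from 5.24 to 9.73 CPM (median 7.34) in Con to 303 to 1237 CPM (median 487) in PB, a log2 change of 6.51 (SE 0.38, adjusted p = 3.77e-08) and 6.31 within L number 5. Its values in 20B and 80B, 1237 and 1061 CPM, lay apart from those of the other PB mice (303 to 526 CPM). Gsta1 rose by 5.41 with the same mice highest (31.6 and 26 CPM, against 1.9 to 5.38 CPM in the other 4), although it was not called within L number 5 (4.99, adjusted p = 0.0829). The summed level of the family was 3196 to 4177 CPM in Con and 6342 to 9272 CPM in PB. Of 20 genes of glucuronidation 8 rose (median 0.70), with Ugt2b34 (2.05) and Ugt2b35 (1.83) foremost. Within L number 5 and with L number as a term 7 were called, and Ugt2b1 (1.05, and 0.95 within L number 5) was under the fold threshold within L number 5. Ugt1a1, which conjugates bilirubin, rose without overlap from 144 to 239 CPM in Con to 567 to 747 CPM in PB (adjusted p = 2.27e-07). The Ugt1a genes share their last exons, so reads in those exons could be assigned to any of them. Of 10 sulfotransferase genes 3 rose (median 0.78), among them Sult1c2 (1.87), at 1.59 to 3.78 CPM in Con and 6.81 to 10.3 CPM in PB. Sult1e1, the estrogen sulfotransferase, had a log2 change of 4.73 and was highest in 20B (19.2 CPM), followed by 80B. Without 20B it was 3.75, and within L number 5 it was 4.21 and not called (adjusted p = 0.114). Neither Gsta1 (adjusted p = 0.0783) nor Sult1e1 (adjusted p = 0.115) was called by limma on the authors' log2 CPM.

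Among 20 transporters, 3 rose and none fell (median 0.22). Abcc3, which exports conjugates into blood, rose by 3.43 (SE 0.36, adjusted p = 2.38e-05), from 25 to 123 CPM (median 32.9) to 376 to 638 CPM (median 514), and Con mouse 21C alone held the 123 CPM. Within L number 5 its change was 3.74. Slco1a4, an organic anion uptake carrier, rose by 1.71, and Abcb1a, a multidrug efflux pump, by 1.46. Abcb1a was not called within L number 5 (1.41, adjusted p = 0.118). Of 17 receptor genes only Ahr, the dioxin receptor, rose (1.47, SE 0.11, adjusted p = 4.97e-07), from 43 to 52.3 CPM to 93.4 to 148 CPM, and by 1.45 within L number 5. Nr1i3 itself was at 20.1 to 71.3 CPM in Con and 24.1 to 33.2 CPM in PB (log2 change −0.35, adjusted p = 0.414). Nr1i2 was at 44.2 to 57.7 CPM and 48 to 66.6 CPM (0.28, adjusted p = 0.0742). Nqo1, a quinone reductase, was the 1 of 9 Nrf2 targets that rose (1.69), and it was not called within L number 5 (1.56, adjusted p = 0.103). Over all genes tested 1.99% were called higher. A single call among 17 receptor genes or 9 Nrf2 targets therefore does not set these lists apart.

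**Figure D3:**
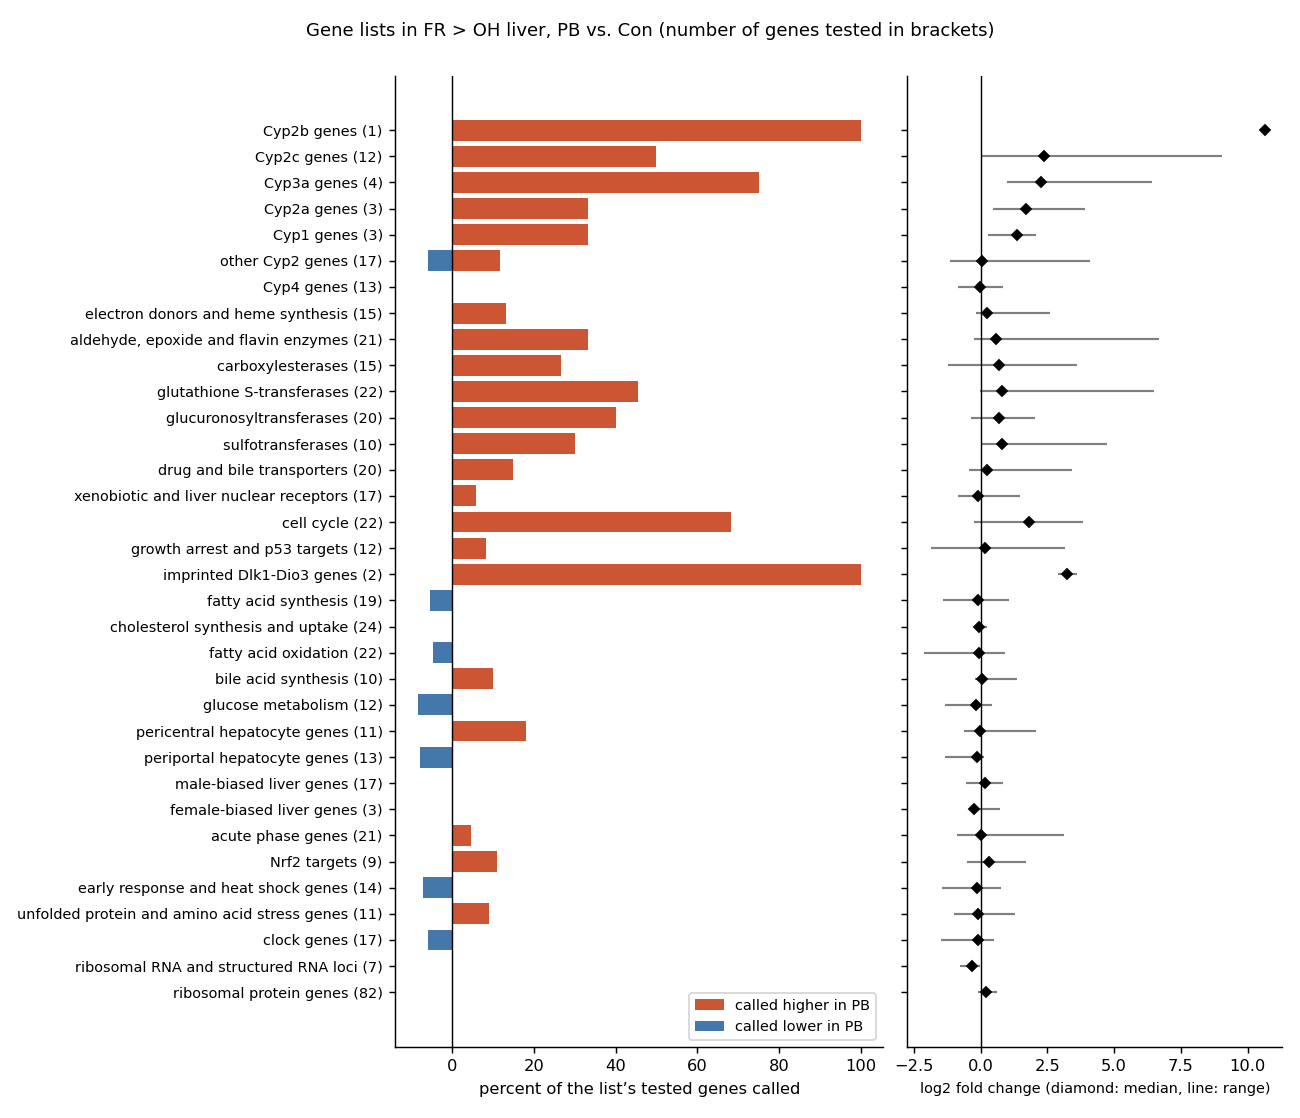
For each gene list, the percent of tested genes called higher (right) and lower (left) in PB is shown in the left panel, and the median and range of the log2 fold change in the right panel. The cell cycle list holds 15 of 22 genes called higher and the glutathione S-transferases 10 of 22, while lipid, clock and stress lists hold at most 1 called gene each. Over all genes tested 2.25% were called.

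Genes of cell division rose in PB mice, and unevenly between animals. Of 22 cell cycle genes 15 rose and none fell, with a median log2 change of 1.79. Mki67, a protein of dividing nuclei, was at 3.39 to 9.94 CPM (median 5.86) in Con and 12 to 76.9 CPM (median 18.6) in PB, a log2 change of 2.38 (SE 0.47, adjusted p = 0.0055). Mice 20B and 80B held 76.9 and 61 CPM and the other 4 PB mice 12 to 21.8 CPM. Ccnb1, encoding the mitotic cyclin B1, rose by 3.84 (SE 0.80, adjusted p = 0.00782), from 0 to 0.518 CPM to 0.795 to 7.72 CPM, again with 20B (7.72 CPM) and 80B (7.59 CPM) apart from the other 4 (0.795 to 1.51 CPM). The related cyclin Ccnb2 rose by 3.12, and Cdk1, the kinase both bind, by 2.68. Of the 6 helicase subunits of DNA replication in the list, Mcm3 (1.15), Mcm5 (1.52) and Mcm6 (1.63) rose, and Mcm2 (0.97), Mcm4 (0.86) and Mcm7 (0.41) were not called. In 19 of the 22 genes 20B and 80B were the 2 highest PB mice. Summed over the list, 20B and 80B reached 354 and 305 CPM, the other PB mice 101 to 154 CPM and Con mice 74.4 to 124 CPM. In this sum 5 PB mice lay above the highest Con mouse. In FR libraries of the same animals the sums were 304 and 308 CPM, 113 to 150.4 CPM and 84.5 to 114 CPM, so the same 2 animals were highest there too. Ccnd1, the cyclin of the early cycle, was not called (24.6 to 48.8 CPM in PB, 25 to 59 CPM in Con, log2 change −0.26). This gene is a large part of the sums. In FR > OH it held 59 of the 124 CPM of Con mouse 8A, the highest Con sum. For PB mouse 75C, the lowest PB sum, it held 25.4 of the 101 CPM. The overlap of the sums thus rests in part on Ccnd1.

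The number of cell cycle calls varied with the libraries in the fit. Leaving out 1 mouse at a time gave 11 (without 20B) to 18 (without 75C) called genes of 22, with 12 each without 80B, Con 21C or Con 90C, and limma on the authors' log2 CPM called 10, Ccnb1 not among them (adjusted p = 0.143). Within L number 5 the median was 1.62 and 1 gene was called, Ccne2 (2.00, adjusted p = 0.0366). With L number as a term in the fit 2 were called. Mki67, Ccnb1 and Ccnb2 had changes of 2.43, 3.43 and 3.10 within L number 5, with adjusted p = 0.106, 0.145 and 0.0537. Gadd45b, a stress and growth arrest gene known as a CAR target, rose by 3.17 from 0.104 to 0.667 CPM to 0.848 to 5.81 CPM. It was the 1 called of 12 growth arrest and p53 target genes, where 2.25% of all genes tested were called. The lowest log2 change of that list was −1.87, which was not called. Within L number 5 the list held 1 gene called higher and 1 called lower. The ranking of the mice reached beyond the cell cycle: 20B and 80B were the 2 highest PB mice for 177 of the 266 genes called higher (66.5%), against 13.7% of the 7163 tested genes with a log2 change above 0. These 2 mice were singled out after their values were seen.

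**Figure D4:**
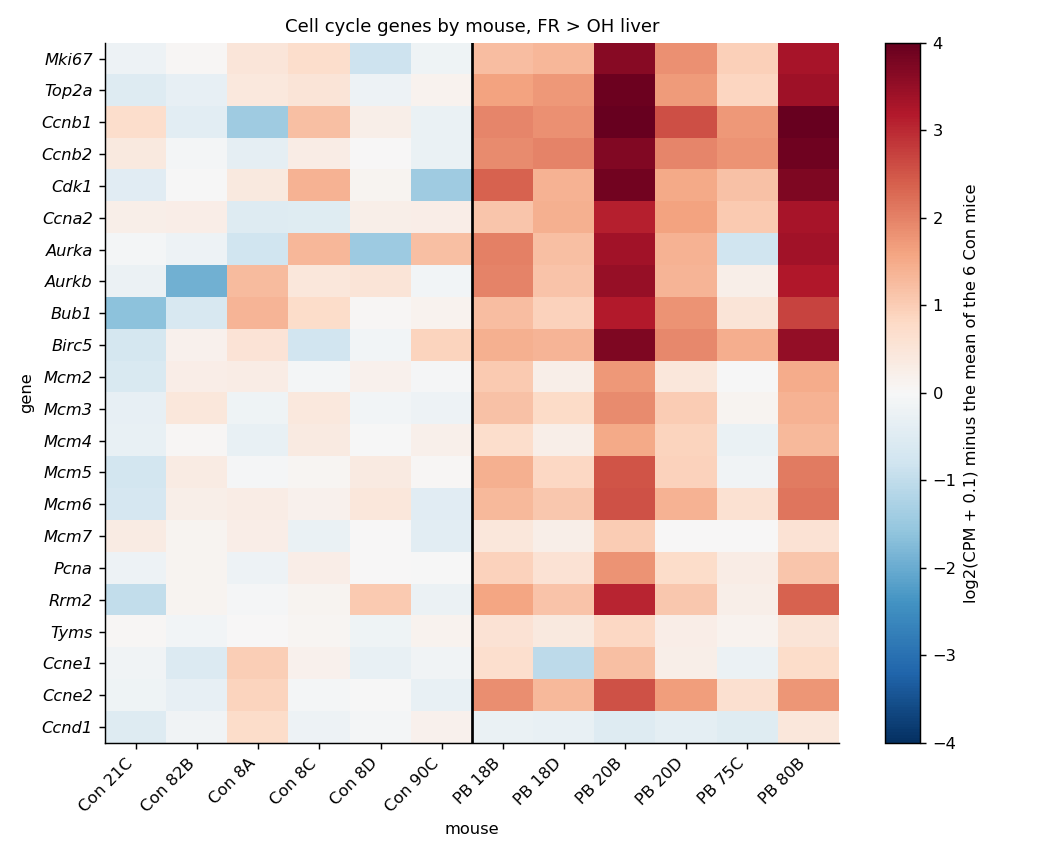
Heat map of 22 cell cycle genes (rows) in 12 mice (columns, Con left of the line, PB right), coloured by log2(CPM + 0.1) minus the mean of the Con mice, with colours ending at 4 in either direction. PB mice 20B and 80B are darkest in most rows, and PB mouse 75C has the lowest sum of the PB mice (101 CPM).

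The imprinted noncoding RNAs Meg3 and Rian of the Dlk1-Dio3 region rose together. Meg3 was at 0.693 to 3.22 CPM (median 1.81) in Con and 6.07 to 25.1 CPM (median 13.8) in PB, a log2 change of 2.90 (SE 0.38, adjusted p = 0.000197) and 2.73 within L number 5. Mouse 18D was highest, and here 80B was the lowest PB mouse. Rian moved from 0.099 to 1.33 CPM to 2.91 to 10.9 CPM (3.60, SE 0.45, adjusted p = 0.000112, and 3.59 within L number 5). The other 5 genes of this list did not pass the filter. Nebl, which encodes an actin-binding protein, rose from 9 counts in all Con libraries together to 937 in PB, a ratio of 99.5 (95% interval of counting error, 52.2 to 218). Orm3, an orosomucoid, was the 1 of 21 acute phase genes that rose (3.11), from 0.333 to 6.25 CPM to 6.67 to 75.7 CPM. Over all genes tested 1.99% were called higher, so this 1 call does not set the list apart. Orm3 was not called within L number 5 (2.88, adjusted p = 0.129) or by limma on the authors' log2 CPM (adjusted p = 0.0512).

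Falls were fewer and smaller. Ntrk2, a neurotrophin receptor, fell from 9.42 to 30.8 CPM (median 23.5) in Con to 0.867 to 4.09 CPM (median 2.72) in PB, a log2 change of −3.06 (SE 0.37, adjusted p = 8.13e-05) and −3.01 within L number 5. Pck1, the gluconeogenic enzyme of the fasting liver, fell from 1424 to 3144 CPM to 556 to 1018 CPM (−1.36, SE 0.21, adjusted p = 0.000947, and −1.13 within L number 5). It was the 1 called of 12 genes of glucose metabolism and the 1 called of 13 periportal genes, against 2.25% of all genes. Fgf21, a hormone of the fasted liver, fell by 2.12 on the log2 scale from 2.08 to 9.78 CPM to 0.434 to 2.5 CPM, with Con mouse 90C overlapping the PB range, and it was not called within L number 5 (−2.15, adjusted p = 0.0597). Scd1, which desaturates stearate, had a log2 change of −1.41 (SE 0.38, adjusted p = 0.0308), with 7367 to 21644 CPM in Con and 1099 to 9374 CPM in PB. Its call was lost without Con 8D, PB 18D, PB 20B or PB 80B (adjusted p = 0.0542 to 0.0684) and within L number 5 (−1.61, adjusted p = 0.12), and also by limma on the authors' log2 CPM (adjusted p = 0.0635). None of the other 18 fatty acid synthesis genes and none of 24 cholesterol genes was called, with medians of −0.11 and −0.081 over these lists. With 2.25% of all genes tested called, this does not set these lists apart. Further falls without overlap between groups were those of 3930402G23Rik (−2.42), Lgals4 (−2.07), Ctcflos (−1.89), AW549542 (−1.78), Grhl1 (−1.53), Gnat1 (−1.33), St8sia3 (−1.30) and Marveld3 (−1.27). Of these, Lgals4, AW549542, Grhl1, St8sia3 and Marveld3 were not called within L number 5. For Lgals4, a galectin, Con mouse 21C held 23.8 CPM and the other Con mice 4.14 to 9.45 CPM, and within L number 5 the change was −1.04 (adjusted p = 0.159).

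Few genes of other liver programs were called. Over all genes tested 2.25% were called, so few or no calls in lists of this size do not set them apart. Among 10 bile acid genes only Akr1d1, the bile acid reductase, rose (1.34), and Cyp7a1, the rate-limiting enzyme, overlapped fully (14.1 to 60.7 CPM in Con, 19.8 to 49.6 CPM in PB). None of 17 male-biased genes, none of 3 tested female-biased genes, none of 82 ribosomal protein genes (median 0.20) and none of 7 ribosomal or structured RNA loci was called. The filter kept only 3 of the 16 female-biased genes listed, and without a filter on low counts 4 of the 16 were called. The 3 tested genes therefore do not speak for the female-biased list. Rn45s, the ribosomal RNA precursor, was at 39957 to 68221 CPM in Con and 24587 to 52919.7 CPM in PB (−0.32, adjusted p = 0.371). PB mouse 20B was the lowest at 24587 CPM, the next being 80B at 39679 CPM. All 7 ribosomal and structured RNA loci lay below 0 (median −0.33), and 77 of the 82 ribosomal protein genes lay above 0, 14 of them passing by adjusted p alone. The part of this difference in the other results was not tested. Single members were called in the remaining lists: Trib3 rose (1.30, of 11 stress genes), and Junb (−1.25, of 14) and Per1 (−1.51, of 17 clock genes) fell. Junb and Per1 each lost the call without any of several mice (8A, 90C, 18B, 18D, 20B or 80B for Junb, 82B, 8A or 20B for Per1), within L number 5 and by limma on the authors' log2 CPM (adjusted p = 0.0854 for Junb and 0.0679 for Per1).

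The PB effect in FR > OH was then set against that in FR and FR > FFPE of the same mice, as an interaction over all 48 libraries. In the fit without the mouse, edgeR called 0 of 13370 genes against FR (305 at an unadjusted p under 0.05) and 0 against FR > FFPE (287). Each animal gave 1 library per preservation, and the paired fit with the mouse as a replicate block called, by adjusted p alone, 37 genes against FR (0.277%) and 67 against FR > FFPE (0.501%). The signed log2 change with PB was higher in FR > OH for 34 of the 37 and 54 of the 67. All but 3 and 1 of these differences were under 2-fold. A higher signed change was not always a larger effect. Oat changed by −0.031 in FR > OH, −0.54 in FR and −0.63 in FR > FFPE, and Cyp2c67 by 0.0013, −0.45 and −0.53. In this paired fit Cyp3a11 differed by 0.49 (SE 0.088, adjusted p = 0.00237) from FR, Cyp2c29 by 0.52 (SE 0.087, adjusted p = 0.00113), Cyp2c54 by 0.60 (SE 0.10, adjusted p = 0.00113) and Fam171a1 by 1.04 (SE 0.18, adjusted p = 0.00118). Cyp2b10 was smaller in FR > OH by 1.74 (SE 0.37, adjusted p = 0.0158): PB libraries held 1415 to 2291 CPM in FR > OH and 1521 to 2287 CPM in FR, but Con libraries held 0.396 to 2.45 CPM in FR > OH and 0.0768 to 0.737 CPM in FR, the latter from 1 to 9 counts. The interaction of Meg3, 1.29 (SE 0.35) in the replicate block fit, did not pass (adjusted p = 0.0954).

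Pericentral hepatocyte genes, expressed around the central vein, were among the genes of this difference. The list was chosen with earlier results of these data known, so its counts are descriptions and no test. Of its 11 genes, 5 were called against FR and 7 against FR > FFPE in the replicate block fit. Over all genes tested 0.277% and 0.501% were called. All 5 and all 7 had the higher signed log2 change in FR > OH. All 11 lay above 0 in both comparisons, against 7475 and 5253 of the 13370 genes tested. The medians were 0.44 and 0.54, against 0.024 and −0.045 over all genes. Other lists leaned to 1 side too. Above 0 lay 14 of 15 carboxylesterases in both comparisons, all 21 acute phase genes against FR > FFPE, and only 6 and 2 of 24 cholesterol genes. Glul, the glutamine synthetase of the last hepatocytes before the central vein, averaged 626 CPM in Con and 687 CPM in PB of FR > OH, 910.3 and 658 CPM in FR, and 868 and 605 CPM in FR > FFPE. Its PB effect thus differed by 0.60 (SE 0.12, adjusted p = 0.00714) from FR and by 0.64 (SE 0.12, adjusted p = 0.00132) from FR > FFPE. For Glul, the Con means of FR > OH and FR were thus farther apart than the PB means. Oat, which encodes ornithine aminotransferase, showed the same order, with 205 and 201 CPM in FR > OH and 393 and 269 CPM in FR. Axin2 and Tbx3 of the same list did not. Axin2 averaged 13.9 and 13.4 CPM in FR > OH and 8.05 and 5.78 CPM in FR. Tbx3 averaged 47.8 and 39.4 CPM in FR > OH and 28.4 and 19.2 CPM in FR. Cyp1a2 and Cyp2e1 differed by 0.47 and 0.40 from FR, and outside the list Rgn, which encodes regucalcin, by 0.47. Within FR > OH alone, 2 of the 11 pericentral genes rose with PB, Cyp1a2 (2.07) and Lect2 (1.11), and the list's median was −0.02. Several limits bear on this comparison. RNA of FR was extracted by another method, and L numbers differ between the preservations. In FR all 6 Con libraries have L number 2, while 2 PB libraries have L number 2 and 4 have L number 3, so the 2 are partly confounded. In FR > FFPE all Con libraries have L number 3 and all PB libraries L number 4, so L number and treatment cannot be told apart there.

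**Figure D5:**
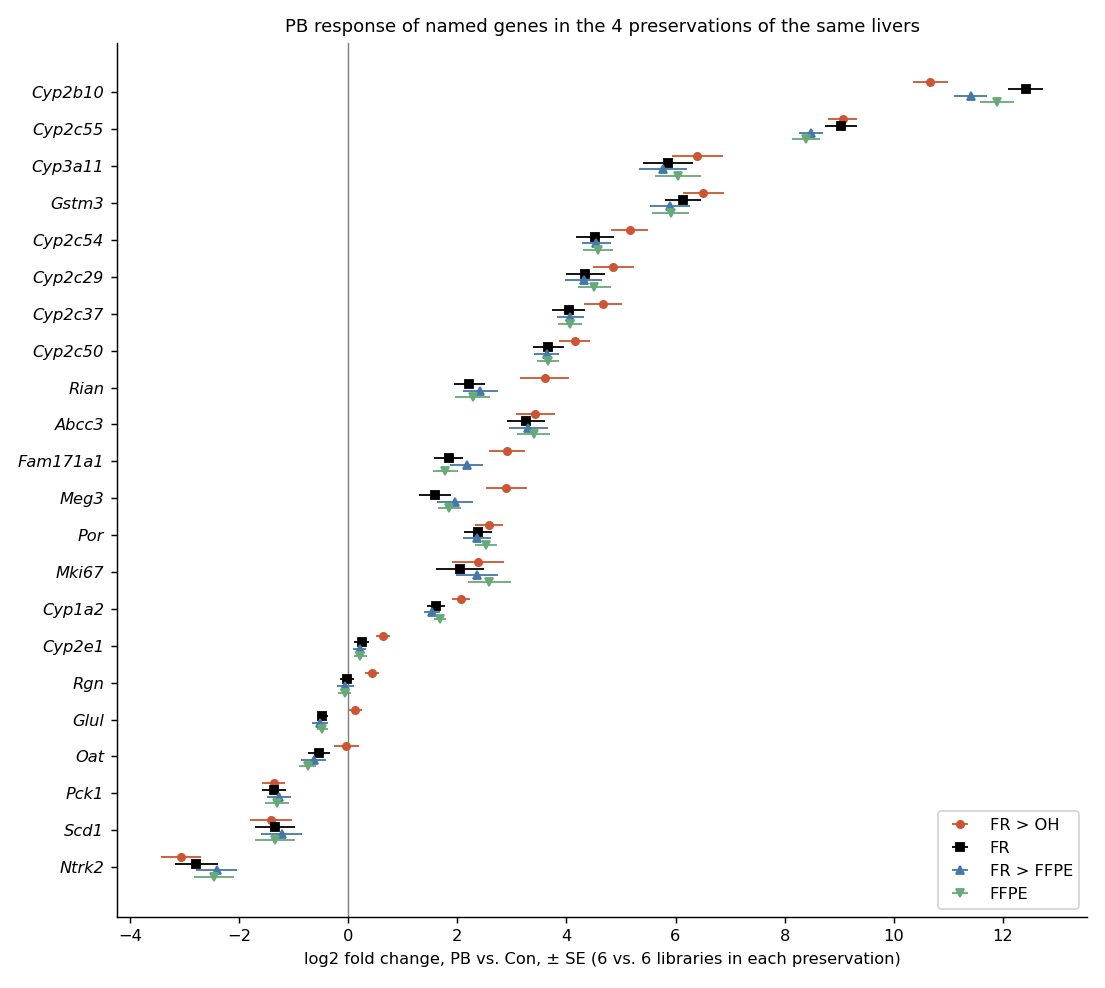
Log2 fold change of PB vs. Con with its SE (horizontal axis) for 22 genes in FR > OH, FR, FR > FFPE and FFPE, each from its own 6 vs. 6 libraries of the same 12 mice. FR > OH lies to the right of the other preservations for Cyp3a11 (6.40 against 5.86 in FR), Cyp2c54 (5.16 against 4.53) and Glul (0.13 against −0.47), and to the left for Cyp2b10 (10.67 against 12.42).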

How the data were processed

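The authors extracted total RNA from paraffin curls of the ethanol-preserved blocks, depleted ribosomal RNA with Ribo-Zero Gold, made stranded libraries and sequenced them as pairs. Per the study's methods and the submitters' processing notes, reads passed through CASAVA 1.8.2, were aligned to mm10 with STAR 2.5.3a, and were assigned to RefSeq transcripts in Partek with an expectation-maximization algorithm. The authors deposited estimated counts per gene, of which 95.7% lay within 0.01 of a whole number. They also deposited log2 CPM values, used only in an alternative.

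Estimated counts were rounded. Of 24543 genes, 13370 were kept, those whose geometric mean over the 48 mouse libraries exceeded 1 (offset 0.0001). Some genes at 0 in all FR > OH Con libraries, such as Cyp2c66, failed this filter. Without a filter on low counts 352 genes were called between PB and Con in FR > OH, against 301 with the filter. PB and Con were compared over the 12 FR > OH libraries, scaled to total count, with edgeR 4.0.16 (quasi-likelihood test, Benjamini-Hochberg adjustment over all genes) in R 4.3.3. Interactions with preservation were fitted over 48 libraries and 8 group means and called by adjusted p alone. The same mouse gave 1 library per preservation, per the labels. Deviations from the group means correlated between libraries of the same mouse (median r 0.709, lowest 0.451, 36 of 36 pairs above 0.1), so the paired fit with the mouse as a replicate block is given beside the other. Replicates were separate mice. Intervals on counts cover counting error only, and 1 count equalled 0.0867 to 0.122 CPM.

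The members and gene lists were chosen with earlier results of these data known. Named genes were the 10 largest rises and 10 largest falls among DEGs without overlap between groups and at 1 CPM or more in a group, the 2 largest rises and 2 largest falls called in each list, a fixed set of liver genes, and up to 10 genes by p in each interaction. Other genes given, such as Cyp2c66, Acta2, Ccne2, Cdk1, Aldh1a7, Ugt2b1, Abcb1a and the Mcm genes, were chosen after their values were seen. Alternatives used TMM or DESeq2 size factors, DESeq2 1.42.0, limma 3.58.1, other filters, thinning, L number, and leaving out each mouse. Promoter sequences came from RefSeq on GRCm38.p6. The test was run first on simulated counts, drawn independently and without a mouse effect. That run does not check the interaction fits where libraries of the same mouse correlate.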

Additional observations from a re-analysis of the deposited data

Results flagged for a closer look

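In 18 of 147 groups of 6 mice (12.2%) examined over the named genes, 1 mouse lay apart from the rest by the gap between its value and the nearest, relative to the whole range. For normally distributed values chance flags about 1 in 20 such groups. CPM was not transformed here and each mouse apart was the highest of its group, so 12.2% cannot be set against that rate. Genes measured in the same mouse are also not independent. Con mouse 21C was the one apart for 9 genes. It was at 123 CPM for Abcc3 (next mouse 52.8 CPM), 96.2 CPM for Cyp2a5 (46.6 CPM), 52.5 CPM for Cyp2c37 (22.3 CPM), 65.2 CPM for Cyp2c54 (29.3 CPM) and 3719 CPM for Cyp2e1 (2473 CPM). It was also highest for Ephx1 (109.9 CPM, next 73.2 CPM), Lgals4 (23.8 CPM, next 9.45 CPM), Nr1i3 (71.3 CPM, next 35.7 CPM) and Oat (387 CPM, next 222 CPM). The same animal was the highest Con mouse for all 9 of these genes in FR and FFPE and for 8 of 9 in FR > FFPE.

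In the other Con mice, 8A was apart for Pck1 (3144 CPM, next 1789 CPM) and Por (96.6 CPM, next 56.9 CPM), and 90C for Cyp2b10 (2.45 CPM, next 1.15 CPM). Among PB mice, 20B was apart for Cyp2a5 (1149.9 CPM, next 683 CPM) and Sult1e1 (19.2 CPM), 80B for Ccnd1 (48.8 CPM, next 29.6 CPM), 20D for Cyp2b9 (1.29 CPM, next 0.405 CPM) and Junb (21.5 CPM, next 11.6 CPM), and 18D for St8sia3 (0.605 CPM, next 0.434 CPM).

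The PB effect differed between preservations in the fit paired by mouse. Against FR, the signed log2 change in FR > OH was higher by 0.47 for Cyp1a2, 0.52 for Cyp2c29, 0.66 for Cyp2c37, 0.48 for Cyp2c50, 0.60 for Cyp2c54, 0.49 for Cyp3a11, 1.04 for Fam171a1, 0.34 for Fmo5, 0.60 for Glul and 0.47 for Rgn. Against FR > FFPE it was higher by 0.54 for Cyp1a2, 0.57 for Cyp2c29, 0.57 for Cyp2c50, 0.68 for Cyp2c54, 0.59 for Cyp2c67, 0.61 for Cyp3a11, 0.57 for Mup15, 0.63 for Mup16, 0.69 for Oat and 0.51 for Rgn. In the other preservation the change was below 0 for Glul, Cyp2c67 and Oat, among others. The Mup and Cyp2c genes are close copies, and their shared reads were divided by estimation.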

How the results depend on the processing

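The count of PB DEGs, 301 in all 12 libraries, was 134 within L number 5, 142 with L number as a term and 1223 by adjusted p alone. Genes called higher numbered 121, 127 and 913 under these settings, and genes called lower 13, 15 and 310. Genes called lower were also 54 when genes over 1% of a library were left out of the total, 54 by DESeq2 and 20 by limma on the authors' log2 CPM, and the cause was not tested. Leaving out 1 mouse at a time gave 227 to 329 DEGs, 202 to 291 higher and 22 (without Con mouse 8A) to 44 lower. The interaction count of 0 became 37 against FR and 67 against FR > FFPE with the mouse as replicate block, and 34 and 86 with the replicate block and TMM scaling. Of 1722 pairs of a named gene and a setting, 1674 kept direction and call, 48 kept direction and lost the call, and 0 reversed. The settings share libraries, so a kept direction is no independent test. Of the 59 called named genes, 43 were called under every alternative run. Of these 59, 16 were not called within L number 5, 12 with L number as a term and 7 by limma. Depth limits genes near 1 CPM, where a Con library holds a few counts.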
